A study of Mus musculus with 10 samples.

Results

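The genes described here are 9 members of the insulin-like growth factor (IGF) system of mouse liver: the IGF binding proteins Igfbp1, Igfbp2, Igfbp3, Igfbp4, Igfbp5 and Igfbp7, and the receptors Igf1r, Igf2r and Insr. They were matched by symbol, and all 9 were found among the 39056 genes of the count table. Each had counts in at least 9 of the 10 libraries, and all 9 were among the 15811 genes tested. Transcript 3' ends were sequenced from the livers and liver tumours of male C57BL/6 mice aged 11 months. DEN/PB-treated MLK3-KO mice gave 3 tumour libraries (KO tumours), and DEN/PB-treated wild-type mice gave 3 (WT tumours). Water-treated MLK3-KO mice gave 2 liver libraries (KO liver), and water-treated wild-type mice gave 2 (WT liver). MLK3 is a mixed-lineage kinase upstream of JNK. The hepatocarcinogen DEN (diethylnitrosamine) was injected once into pups 2 weeks old, at 5 µg/g. The tumour promoter PB (phenobarbital) followed after 1 week, at 0.05% of the drinking water, until the end. Every tumour came from a treated mouse and every liver from an untreated mouse, so the treatment and the tumour cannot be told apart. The labels give neither the deleted part of the gene nor the cells that lack it, and they do not say whether a library holds 1 tumour or several; the extraction protocol speaks of treated liver where the sample labels speak of tumour.

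IGF1 and IGF2 are small growth factors that circulate almost wholly bound to binding proteins. The liver makes most circulating IGF1 under growth hormone. In plasma IGFBP3 or IGFBP5 carries it in a complex with the acid-labile subunit, whereas IGFBP1, IGFBP2 and IGFBP4 form smaller complexes, and IGFBP7 binds IGFs only weakly. Hepatocyte Igfbp1 is repressed by insulin through the transcription factor FOXO1 and is induced by fasting and by stress. Igf1r and Insr are related receptor tyrosine kinases. Igf2r has no kinase: it takes up IGF2 for degradation and sorts lysosomal enzymes. Normal adult hepatocytes carry abundant Insr and very little Igf1r.

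The libraries held 12408749 to 18081487 counts. Levels are CPM, the share of a library's counts scaled to a common depth, with TMM factors. Since a 3' tag library gives about 1 tag per transcript, levels of different genes were set side by side without a correction for length. Map3k11, which encodes MLK3, stood at 10, 10.3 and 5.84 CPM in KO tumours, 12.2, 9.54 and 14.3 CPM in WT tumours, 5.38 and 5.81 CPM in KO liver and 7.92 and 14.9 CPM in WT liver. A 3' tag outside the deleted part would not report the knockout, so this level checks nothing. KO tumour replicate 2 stood apart. Its counts of the fetal liver markers Afp (55) and Gpc3 (7) were far below those of KO tumour replicates 1 and 3 (5791 and 2337 for Afp, 608 and 678 for Gpc3) and those of the WT tumours (2000 to 8684 and 5444 to 8469). KO and WT livers had 4 to 111 counts of Afp and 0 to 70 of Gpc3. Results that rest on this library are therefore also given without it. The sum of 11 hepatocyte markers was 65782 to 81259 CPM in KO tumours, 127619 to 171934 CPM in WT tumours, 74976 to 79728 CPM in KO liver and 69391 to 71688 CPM in WT liver. In tissue of mixed cells, fewer cells of a type and less RNA per cell cannot be told apart.

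The binding protein genes lie in 2 tail-to-tail pairs. Igfbp1 (chromosome 11, 7197782 to 7202546, plus strand, GRCm38) faces Igfbp3 (7206086 to 7213923, minus strand) across 3539 bases. Igfbp2 (chromosome 1, 72824503 to 72852474, plus strand) faces Igfbp5 (72857932 to 72874884, minus strand) across 5457 bases, and no protein-coding gene lies inside either gap. Igfbp4 (99041244 to 99054392, plus strand) is also on chromosome 11, and Igfbp7 (77349240 to 77408041, minus strand) is on chromosome 5. Among the receptors, Insr lies on chromosome 8 (3122061 to 3279617, minus strand), Igf1r on chromosome 7 (67952827 to 68233668, plus strand) and Igf2r on chromosome 17 (12682406 to 12769664, minus strand). The 3' end of Igfbp7 overlaps that of Polr2b on the other strand, so their reads could be mixed if strand was not used in counting.

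Promoter windows of RefSeq (GRCm38.p6, 250 bases before to 50 after the start) were found for 8 of the 9 genes, with 2 for Igfbp2, of which the upstream one is given. Those of Igfbp1 and Igfbp2 are shown because these binding proteins had the clearest changes in the tumours. The letters searched on both strands were the arms of the insulin response sequence, CAAAACA and CAAAATA, and the core of the binding site of the hepatocyte factor HNF1 (GTTAAT, then any base, then ATT). Capitals mark matches to any of these.

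Igfbp1 promoter, chr11:7197537-7197836, plus strand: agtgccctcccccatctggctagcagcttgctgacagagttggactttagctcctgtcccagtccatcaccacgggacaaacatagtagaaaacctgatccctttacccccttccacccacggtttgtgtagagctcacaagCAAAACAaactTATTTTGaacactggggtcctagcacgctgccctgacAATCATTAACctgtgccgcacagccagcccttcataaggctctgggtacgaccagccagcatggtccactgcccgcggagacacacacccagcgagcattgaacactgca

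Igfbp2 promoter, chr1:72824230-72824529, plus strand: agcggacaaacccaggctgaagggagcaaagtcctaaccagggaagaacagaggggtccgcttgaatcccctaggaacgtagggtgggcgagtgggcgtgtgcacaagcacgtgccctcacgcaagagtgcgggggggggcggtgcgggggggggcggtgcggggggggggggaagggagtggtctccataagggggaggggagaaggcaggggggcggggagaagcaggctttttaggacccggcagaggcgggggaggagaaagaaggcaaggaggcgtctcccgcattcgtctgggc

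Among the 8 genes with a window, only Igfbp1 held any of the 3 motifs. Its left arm began 108 bases and its right arm 97 bases before the annotated start, the right arm being CAAAATA on the reverse strand, with the HNF1 core 60 bases before the start. Of all 32851 promoter windows, 6.28% held CAAAACA, 4.36% held CAAAATA, 0.472% held both and 0.399% held the HNF1 core. A match describes letters and is no evidence of binding in these samples.

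Igfbp4, whose product mostly inhibits IGF action, was the most abundant member in liver. It stood at 2009, 2402 and 2147 CPM in KO tumours, 2113, 2909 and 2455 CPM in WT tumours, 2810.5 and 3804 CPM in KO liver and 3013 and 2946 CPM in WT liver. All tumours of a genotype lay below all livers of that genotype, by a small margin. The log2 fold change was -0.60 (95% interval -1.07 to -0.13) in KO tumours against KO liver and -0.26 (-0.73 to 0.22) in WT tumours against WT liver. Neither passed edgeR's quasi-likelihood test with Benjamini-Hochberg adjustment over all genes (adjusted p = 0.39 and 0.55).

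Igfbp1 stood at 402, 10.8 and 662 CPM in KO tumours, 2163, 4439 and 2366 CPM in WT tumours, 39.1 and 30 CPM in KO liver and 39.2 and 111 CPM in WT liver. All WT tumours lay above every other library, and KO tumour replicate 2 lay below all livers. The log2 fold change in WT tumours against WT liver was 5.32 (SE 1.14), or 39.8-fold, and passed edgeR's test (adjusted p = 0.008). In KO tumours against KO liver it was 3.37 (SE 1.03), which did not pass (edgeR adjusted p = 0.26). Without KO tumour replicate 2 it was 3.94 and passed (edgeR adjusted p = 0.0012). Set against WT tumours directly, KO tumours had a log2 fold change of -3.06 (SE 0.85), with no overlap, that just missed the threshold (edgeR adjusted p = 0.057). That difference passed without KO tumour replicate 2 (-2.49, edgeR adjusted p = 0.0051) and without any 1 of the 4 livers (0.028 to 0.043), and missed the threshold without any other tumour (up to 0.18). The interaction, which tests whether the tumour-to-liver difference was unlike between genotypes, was -1.94 (SE 1.27) and did not pass (edgeR adjusted p = 0.58).

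Markers of another cell type broadly followed Igfbp1 between groups, and within KO tumours the library lowest in both was replicate 2. In each group a library other than the one with the most Igfbp1 had the largest marker sum. The summed level of 9 cholangiocyte markers was 292, 59.9 and 180 CPM in KO tumours, 511, 461 and 279 CPM in WT tumours, 69.6 and 83.9 CPM in KO liver and 127 and 98.1 CPM in WT liver. Of these markers 2 rose in WT tumours against WT liver (Spp1 and Tspan8) and 1 was lower in KO than in WT tumours (Sox9); the defining markers Krt19 and Krt7 had at most 31 counts summed over any group. KO tumour replicate 2 was again the lowest tumour, as it also was for neutrophil markers (17.8 CPM, against 55.1 to 215 CPM in the other tumours). The part of these cell types in the level of Igfbp1 was not tested.

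Igfbp2, whose product is the main binding protein of fetal rat liver, stood at 276, 480.4 and 487 CPM in KO tumours, 798, 1002 and 571 CPM in WT tumours, 578 and 567 CPM in KO liver and 295 and 357 CPM in WT liver. All WT tumours lay above all WT livers, whereas all KO tumours lay below both KO livers. The log2 fold change was 1.28 (SE 0.29) in WT tumours against WT liver, which passed edgeR's test (adjusted p = 0.012), and -0.47 (SE 0.28) in KO tumours against KO liver, which did not (adjusted p = 0.6). The interaction was -1.74 (SE 0.4) and passed (edgeR adjusted p = 0.041), so the tumour-to-liver differences of the genotypes differed from each other by 3.35-fold. KO liver averaged 572 ± 7.46 CPM and WT liver 326 ± 43.6 CPM (SD, n = 2 each). This log2 fold change of 0.81 (SE 0.31) did not pass (edgeR adjusted p = 0.63). KO tumours averaged 414 ± 120.2 CPM and WT tumours 790.3 ± 215 CPM (SD, n = 3 each). That log2 fold change of -0.93 (SE 0.25) stood at the edge of the threshold, with an adjusted p of 0.051 in edgeR, 0.044 in edgeR with RLE scaling and 0.004 in DESeq2; it also passed without either WT liver or without WT tumour replicate 3 (edgeR, 0.033 to 0.046). The interaction call depended on most libraries: it was kept without KO tumour replicate 2 and without WT tumour replicate 3, and was lost in the other 8 fits that left out 1 library (edgeR adjusted p = 0.056 to 0.12).

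**Figure D1:**
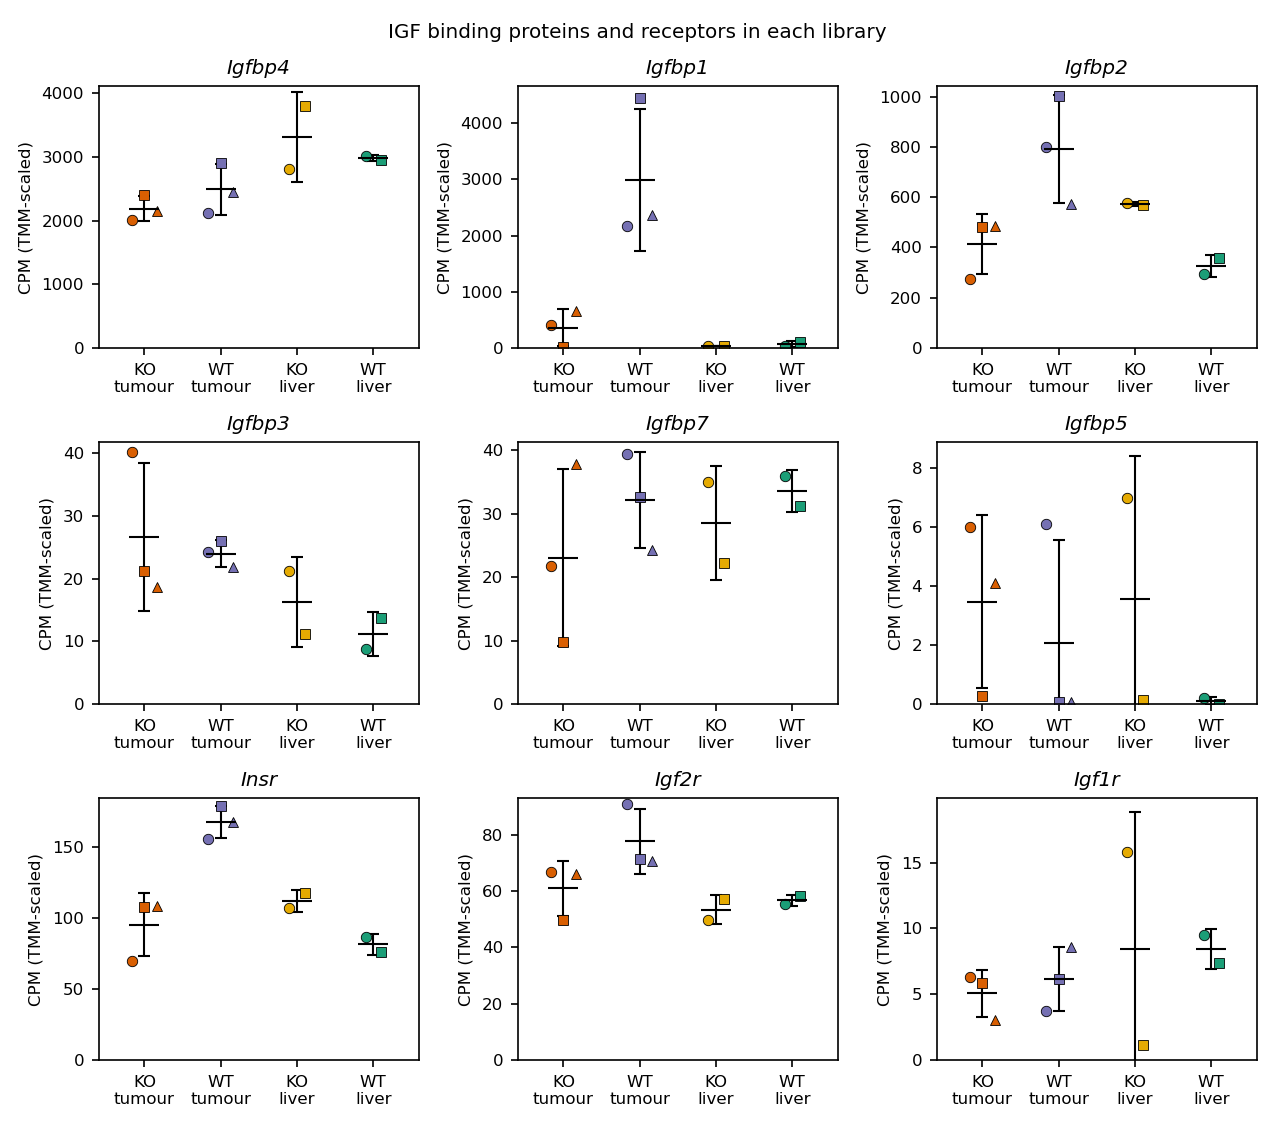
Level of each member in every library (CPM scaled by TMM, linear axes from 0), by group. Circles, squares and triangles are replicates 1, 2 and 3, and bars give the mean and SD (n = 3 for tumours, n = 2 for livers; bars that would pass below 0 end at the axis). Igfbp1 reaches 2163 to 4439 CPM in WT tumours and at most 662 CPM elsewhere, and Insr separates WT tumours (156 to 179 CPM) from all other libraries (69.6 to 118 CPM).

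The remaining binding proteins were low. Igfbp3, the main plasma carrier, comes in rodent liver from endothelial and Kupffer cells rather than from hepatocytes. It stood at 40.2, 21.2 and 18.7 CPM in KO tumours, 24.3, 26 and 21.8 CPM in WT tumours, 21.3 and 11.2 CPM in KO liver and 8.73 and 13.7 CPM in WT liver. WT tumours did not overlap WT liver, but the log2 fold change of 1.10 (SE 0.43) did not pass (edgeR adjusted p = 0.14), and that in KO tumours against KO liver was 0.71 (SE 0.42, adjusted p = 0.6). The summed level of 12 macrophage markers was 665 to 1025 CPM in KO tumours, 708 to 1088 CPM in WT tumours, 484 to 768 CPM in KO liver and 483 to 508 CPM in WT liver. For 14 endothelial markers the ranges were 484 to 558, 499 to 623, 480 to 518 and 445 to 567 CPM in the same order of groups. Whether either cell type set the level of Igfbp3 was not tested.

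Igfbp7, a secreted protein of vessel walls, showed no call. It ranged from 9.84 to 37.8 CPM in KO tumours, from 24.3 to 39.5 CPM in WT tumours, from 22.2 to 35 CPM in KO liver and from 31.2 to 35.9 CPM in WT liver. The 95% interval of the log2 fold change was -1.24 to 0.63 in KO tumours against KO liver and -1 to 0.87 in WT tumours against WT liver.

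Igfbp5, made by stellate cells and other mesenchymal cells, was close to absent in some libraries of every group. Its counts were 78, 4 and 57 in KO tumours, 117, 1 and 1 in WT tumours, 122 and 2 in KO liver and 3 and 0 in WT liver. In KO tumours, WT tumours and KO liver, libraries with 57 counts or more stood beside others with 4 or fewer, and no comparison passed edgeR's test (adjusted p = 0.32 to 1). The 14 stellate cell and fibroblast markers summed to 610.4, 378 and 471 CPM in KO tumours, 739.7, 336 and 373 CPM in WT tumours, 483 and 431 CPM in KO liver and 489 and 538 CPM in WT liver. In KO tumours, WT tumours and KO liver the library with the most Igfbp5 also had the largest marker sum, while the WT livers, with sums in the same range, had almost no Igfbp5. The part of these cells was not tested.

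The make-up of the binding protein transcripts followed Igfbp1. Of all counts of the 6 genes, Igfbp1 took 11.6 ± 10% in KO tumours, 46.1 ± 5.83% in WT tumours (SD, n = 3 each), 0.898 ± 0.314% in KO liver and 2.18 ± 1.45% in WT liver (SD, n = 2 each). Igfbp4 took 73 ± 9.09%, 40.3 ± 5.32%, 83.2 ± 3.72% and 87 ± 2.58% in the same groups. The share of Igfbp2 moved little, with means of 9.51% to 14.7%. WT tumours were thus the only group in which Igfbp1 came close to or exceeded Igfbp4, at 0.964 to 1.53 Igfbp1 counts per Igfbp4 count, against 0.0045 to 0.308 in KO tumours. Such ratios within a library do not depend on how libraries are scaled. The summed level of the 6 transcripts was 3012 ± 310.1 CPM in KO tumours, 6330.5 ± 1806 CPM in WT tumours, 3963 ± 668 CPM in KO liver and 3425 ± 46.4 CPM in WT liver.

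**Figure D2:**
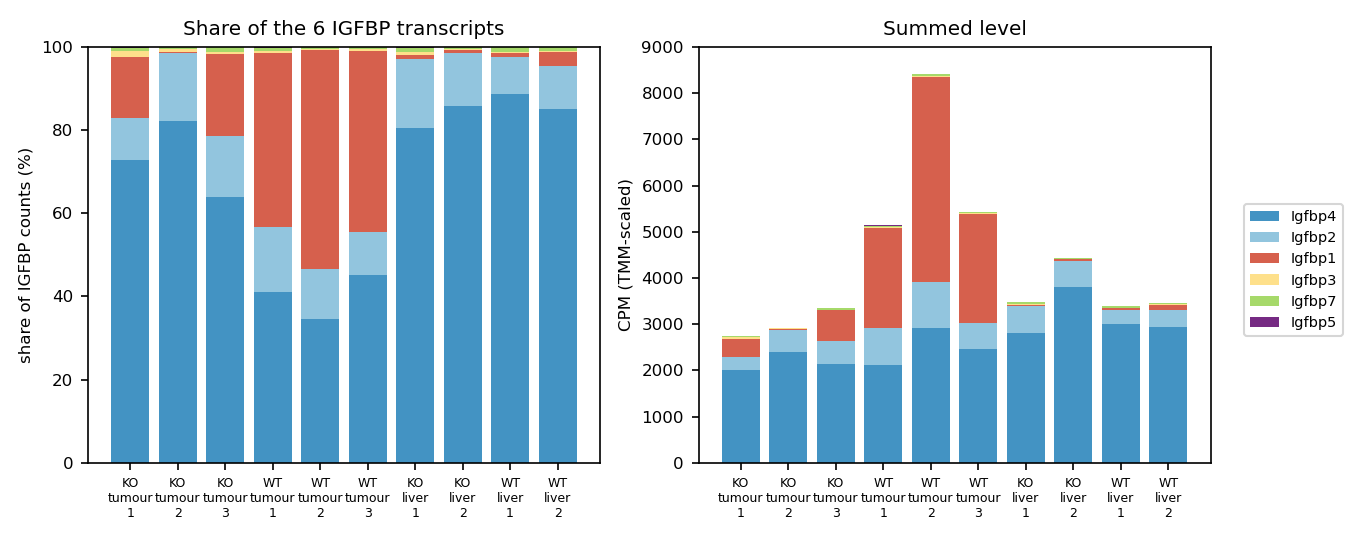
Left, share of each gene in the summed counts of the 6 IGF binding protein genes (%), per library. Right, their summed level (CPM scaled by TMM), with bars starting at 0 and stacked by gene. Igfbp1 fills 42% to 52.8% of the bars of WT tumours, 0.37% to 19.7% of those of KO tumours and at most 3.2% of those of liver.

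Among the receptors, Insr stood at 69.6, 108 and 109 CPM in KO tumours, 156, 179 and 168 CPM in WT tumours, 107 and 118 CPM in KO liver and 86.9 and 76.3 CPM in WT liver. WT tumours lay above every other library, whereas KO tumours overlapped both liver groups. Its log2 fold change was 1.04 (SE 0.24) in WT tumours against WT liver and passed edgeR's test (adjusted p = 0.013). In KO tumours against WT tumours it was -0.81 (SE 0.21), or 1.76-fold lower, and passed as well (edgeR adjusted p = 0.039). KO tumours against KO liver gave -0.24 (95% interval -0.73 to 0.26; edgeR adjusted p = 0.79). The interaction of -1.27 (SE 0.33) passed in DESeq2 (adjusted p = 0.0093) but not in edgeR (adjusted p = 0.077). The call between tumours was lost in a fit of the tumours alone (edgeR adjusted p = 0.07). It was also lost in each fit without KO tumour replicate 1 or 3, without any 1 WT tumour or without either KO liver (edgeR adjusted p = 0.051 to 0.13), and was kept without KO tumour replicate 2. The hepatocyte marker sum given above was also highest in WT tumours, as for Igfbp1, Igfbp2 and Insr, with 4 of its 11 markers higher and 2 lower in WT tumours against WT liver and 4 lower in KO than in WT tumours; its part in these results was not tested.

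Igf2r stood at 67, 49.7 and 66.2 CPM in KO tumours, 91, 71.5 and 70.6 CPM in WT tumours, 49.8 and 57.2 CPM in KO liver and 55.4 and 58.3 CPM in WT liver. WT tumours did not overlap any other group, yet the log2 fold change against WT liver was 0.45 (SE 0.24; edgeR adjusted p = 0.3) and that of KO against WT tumours -0.35 (SE 0.21; edgeR adjusted p = 0.5). Igf1r was the lowest receptor, at 3.03 to 6.32 CPM in KO tumours, 3.75 to 8.6 CPM in WT tumours, 1.13 and 15.8 CPM in KO liver and 7.38 and 9.49 CPM in WT liver. The KO livers differed from each other more than the group means did, with 276 and 16 counts, and the direction of KO tumours against KO liver rests on replicate 1 of KO liver (log2 fold change -0.74 with it and 2.16 without it). Insr exceeded Igf1r in all libraries, by 6.76 to 104 counts per Igf1r count. In order of mean level in WT liver the members ran Igfbp4, Igfbp2, Insr, Igfbp1, Igf2r, Igfbp7, Igfbp3, Igf1r and Igfbp5, of which Insr, Igfbp1 and Igf2r lay within the spread of Igfbp1.

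Counted over the family, 3 of 9 members passed edgeR's test in WT tumours against WT liver, all higher (Igfbp1, Igfbp2 and Insr), where 8.34% of all tested genes passed, 3.64% being higher and 4.7% lower. An unadjusted edgeR p under 0.05 was reached by 4 members, Igfbp3 being the other, against 21.4% of all tested genes. The groups did not overlap for 6 of the 9 members, against 37.3% of all tested genes. The median log2 fold change of the 9 was 1.04, against 0.09 for all tested genes. Without WT liver replicate 1 none of the 3 passed (edgeR adjusted p = 0.055 for Igfbp1, 0.1 for Igfbp2 and 0.057 for Insr), and without WT liver replicate 2 Insr did not (0.12).

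In KO tumours against KO liver 0 of 9 members passed edgeR's or DESeq2's test, where 0.0759% of all tested genes passed in edgeR and 2.81% in DESeq2. An unadjusted edgeR p under 0.05 was reached by 2 members, Igfbp1 and Igfbp4, against 9.61% of all tested genes. The groups did not overlap for 2 members, Igfbp2 and Igfbp4, against 26.7% of all tested genes. KO liver against WT liver likewise gave 0 of 9 in edgeR and DESeq2, with backgrounds of 0.00632% and 1.08%, and 1 member, Igfbp2, at an unadjusted edgeR p under 0.05, against 7.28% of all tested genes. The liver groups did not overlap for 3 members, Igfbp1 (lower in KO), Igfbp2 and Insr (both higher in KO), against 31% of all tested genes. For Igfbp1 the nearest libraries stood at 39.1 CPM in KO and 39.2 CPM in WT liver. Its log2 fold change of -1.12 became -0.19 without WT liver replicate 2. KO tumours against WT tumours gave 1 of 9 in edgeR, Insr, which was lower, where 4.52% of all tested genes passed, 3.25% being higher and 1.27% lower. Igfbp1, Igfbp2 and Insr, 3 members, had an unadjusted edgeR p under 0.05, against 14.9%, and 4 members, Igf2r among them, did not overlap, against 23.1%. DESeq2 called Insr and Igfbp2, against 7.58% of all tested genes. The interaction called 1 of 9, Igfbp2, against 1.59% of all tested genes, 1.22% being higher and 0.367% lower. Its unadjusted edgeR p was under 0.05 for Igfbp2 and Insr, 2 members, against 12.7%, and DESeq2 called the same pair, against 4.4%. These comparisons share libraries with each other.

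**Figure D3:**
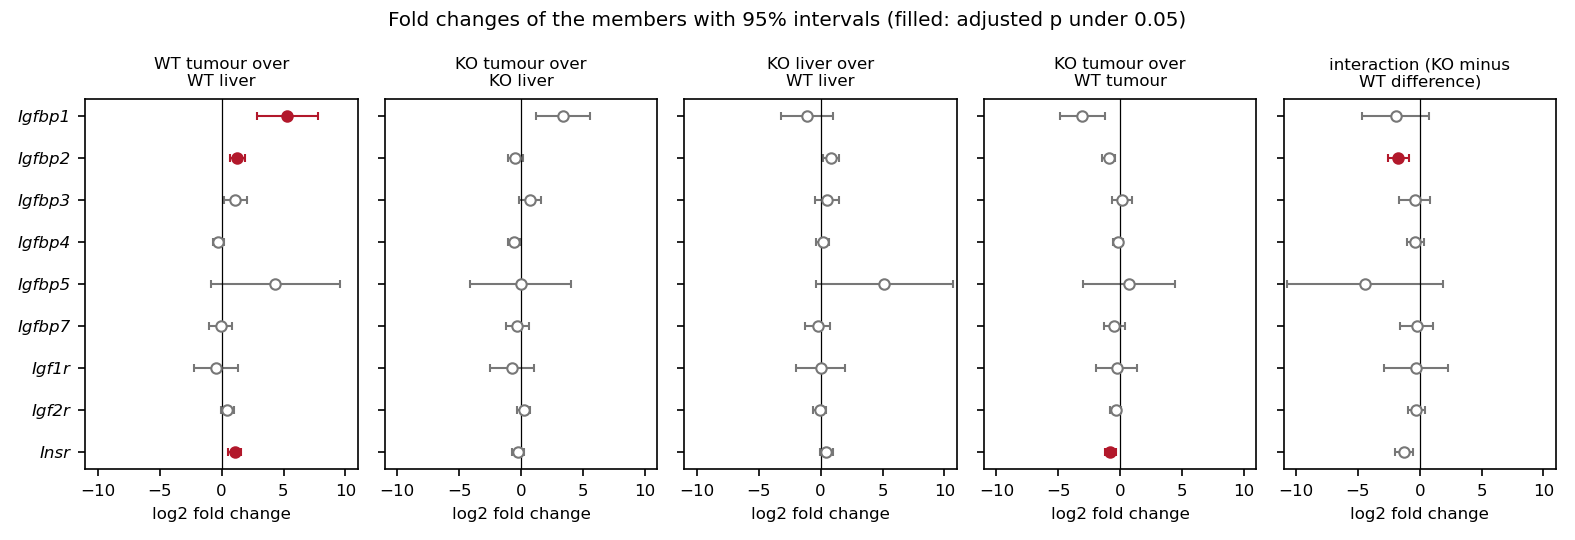
Log2 fold changes of the 9 members in the 5 comparisons, with 95% intervals from edgeR's model. Filled red points passed at an adjusted p under 0.05. Igfbp1, Igfbp2 and Insr are filled in WT tumours over WT liver, Insr in KO tumours over WT tumours and Igfbp2 in the interaction; intervals of Igfbp5 are the widest.

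The ligands and the proteins that act on the binding proteins were read from a list of 23 genes, of which 15 were tested. In WT tumours against WT liver 2 fell and 1 rose, where 8.34% of all tested genes passed edgeR's test. The median log2 fold change was 0.88, against 0.09 for all tested genes. Those that fell were Igf1 (log2 fold change -2.61, SE 0.26, edgeR adjusted p = 1.8e-05) and Igfals, which encodes the acid-labile subunit (-2.69, SE 0.37, adjusted p = 0.00025). The lysosomal protease Ctsd, which can cleave binding proteins, rose (0.99, SE 0.2, adjusted p = 0.0061), a call lost without either WT liver (0.064 and 0.051). In KO tumours against KO liver 0 of the 15 passed edgeR's test, against 0.0759% of all tested genes. An unadjusted edgeR p under 0.05 was reached by 4, against 9.61% of all tested genes. In DESeq2 1 passed, Htra3, against 2.81%. Igf1 had -0.27 (edgeR adjusted p = 0.78) and Igfals -0.78 (adjusted p = 0.5). The smallest edgeR p-values there belonged to the protease Htra3, with 0, 1 and 8 counts in KO tumours against 119 and 75 in KO liver (adjusted p = 0.27 in edgeR and 0.011 in DESeq2), and to Igf2, with 1228, 0 and 7 counts against 0 and 1 (edgeR adjusted p = 0.28). KO tumours had more Igf1 (2.48, SE 0.25, edgeR adjusted p = 2.2e-05) and Igfals (2.48, SE 0.34, adjusted p = 0.00038) than WT tumours. In KO against WT liver 0 passed in edgeR or DESeq2. An unadjusted edgeR p under 0.05 was reached by 1, against 7.28% of all tested genes. The smallest edgeR p-values were those of Stc1 (46 and 1 counts against 0 and 0, adjusted p = 0.63) and Igfals (0.57, adjusted p = 0.76).

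Binding protein transcripts therefore outnumbered Igf1 transcripts by different factors. There were 5.61, 3.17 and 5.71 counts of the 6 binding proteins per Igf1 count in KO tumours and 40.4, 77.1 and 44.2 in WT tumours, against 4.8 and 5.03 in KO liver and 5.29 and 4.19 in WT liver. WT tumours stood apart, and the other 3 groups overlapped.

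Below the receptors, 39 of 42 listed signalling genes were tested. In WT tumours against WT liver 1 rose and 1 fell, where 8.34% of all tested genes passed edgeR's test. The median was 0.08, against 0.09 for all tested genes. The pseudokinase Trib3, a stress-induced inhibitor of AKT, stood at 17.1, 17.2 and 40.2 CPM in KO tumours, 124, 258 and 161 CPM in WT tumours, 12.9 and 9.28 CPM in KO liver and 15 and 4.67 CPM in WT liver. It rose in WT tumours against WT liver (4.21, SE 0.56, edgeR adjusted p = 0.00021) and was lower in KO than in WT tumours (-2.87, SE 0.44, adjusted p = 0.00098). Grb14, an adaptor that inhibits the insulin receptor kinase, went the other way: 35.2, 43.2 and 37 CPM in KO tumours, 10.9, 17.8 and 20.5 CPM in WT tumours, 38 and 31.2 CPM in KO liver and 44.4 and 31.4 CPM in WT liver. It fell in WT tumours (-1.21, SE 0.31, edgeR adjusted p = 0.025), a call lost without WT liver replicate 1 (0.2), without WT tumour replicate 1 (0.078) and in the fit of these groups alone (0.08). Grb14 was higher in KO than in WT tumours (1.23, SE 0.29, adjusted p = 0.022), which was lost without WT tumour replicate 1 or 2 and without KO tumour replicate 2 or 3 (0.053 to 0.091). Of the 39 genes, 0 passed edgeR's test in KO tumours against KO liver, and 1 passed in DESeq2, against 2.81% of all tested genes in DESeq2. An unadjusted edgeR p under 0.05 was reached by 5, against 9.61% of all tested genes. Gsk3a had -0.90 (edgeR adjusted p = 0.29). Between KO and WT liver 0 passed in edgeR or DESeq2, with 1 at an unadjusted edgeR p under 0.05, against 7.28% of all tested genes. Inppl1 had -1.33 (edgeR adjusted p = 0.69).

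**Figure D4:**
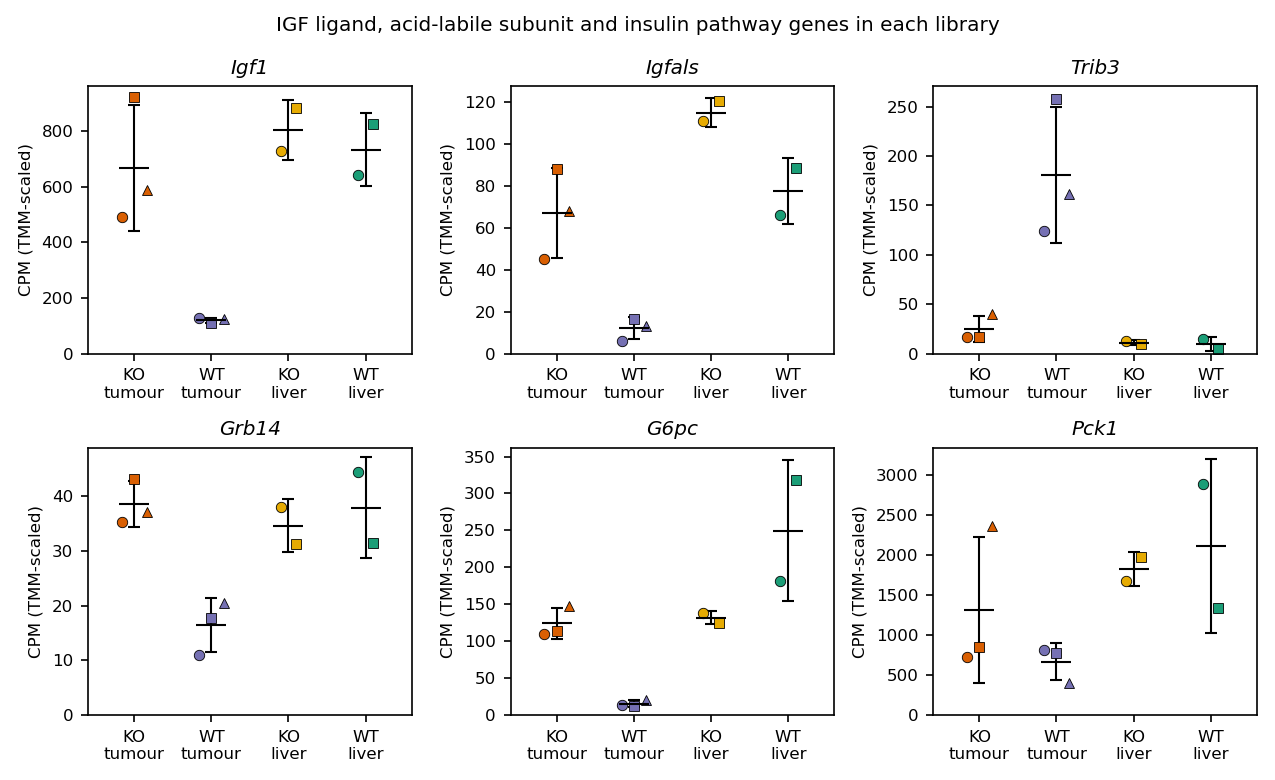
Level of 6 genes of the pathway lists in every library (CPM scaled by TMM, linear axes from 0), with symbols and bars as in the plot of the members. WT tumours have the lowest Igf1 (109 to 127 CPM) and G6pc (12 to 20.7 CPM) and the highest Trib3 (124 to 258 CPM); Pck1 overlaps between KO and WT tumours.

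The last list held 20 hepatic genes under insulin and FOXO1, all tested. Igfbp1 shares repression by insulin with the gluconeogenic genes G6pc and Pck1. Both gluconeogenic genes fell in WT tumours against WT liver. Among listed genes without a call there, Irs2 had a log2 fold change of 0.04, Ppargc1a 0.31, Trib1 0.17 and Pdk4 -0.24. Of the whole list there, 10 genes had a positive and 10 a negative log2 fold change. The part of insulin or FOXO1 in these levels was not tested. In WT tumours against WT liver 4 genes fell and 1 rose, where 8.34% of all tested genes passed edgeR's test. The median was -0.10, against 0.09 for all tested genes. G6pc fell by 4.04 on the log2 scale (SE 0.3, edgeR adjusted p = 9.1e-07), the lipogenic factor Mlxipl by 1.17 (adjusted p = 0.015) and fatty acid synthase Fasn by 0.90 (adjusted p = 0.031). Pck1, named after its values were seen because 4 genes had smaller p-values, fell by 1.67 (adjusted p = 0.032). The lipid droplet gene Pnpla3 rose, with 225, 123 and 361 counts against 0 and 1 (adjusted p = 0.0029). KO tumours had more G6pc (3.03, SE 0.28, edgeR adjusted p = 1e-05) and Fasn (1.35, SE 0.22, adjusted p = 0.0018) than WT tumours, and less of the carnitine palmitoyltransferase Cpt1a (-1, SE 0.21, adjusted p = 0.011). Of the 20 genes, 0 passed in edgeR or DESeq2 in KO tumours against KO liver. An unadjusted edgeR p under 0.05 was reached by 3, against 9.61% of all tested genes. Irs2 had -1.17 (edgeR adjusted p = 0.44) and Cpt1a -0.56 (adjusted p = 0.45). KO against WT liver likewise gave 0 in edgeR and DESeq2, with 3 at an unadjusted edgeR p under 0.05, against 7.28% of all tested genes. Pnpla3 had 16 and 45 against 0 and 1 counts (edgeR adjusted p = 0.43) and Srebf1 1.15 (adjusted p = 0.56). The calls in WT tumours ended for Mlxipl without WT liver replicate 1 or WT tumour replicate 1 or 2 (edgeR adjusted p = 0.057 to 0.075), for Fasn without either WT liver, WT tumour replicate 1 or 2 or KO tumour replicate 3 (0.054 to 0.14), and for Pck1 in DESeq2 (0.065) and without WT liver replicate 1 or any 1 WT tumour (0.053 to 0.3).

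The genes whose levels followed the members most closely were sought among 7198 genes with a mean of at least 10 CPM, by Pearson's r of log2(CPM + 1) over the 10 libraries. These values describe libraries that share 4 groups, and carry no test. Igfbp1 was followed by Slpi (r = 0.99), a secreted protease inhibitor with 28, 0.0698 and 31.7 CPM in KO tumours, 72.1, 145 and 107 CPM in WT tumours and 2.69 to 4 CPM in the livers, and by the coenzyme Q gene Coq8b (r = 0.98). Nearest to Igfbp2 were Serpina6 (r = 0.93), which encodes the corticosteroid carrier of plasma, and, from the family itself, Insr (r = 0.91). Insr was closest to the transporter gene Slc22a23 and to Ugp2, which makes UDP-glucose (r = 0.94 each). Igfbp4 ran with Os9 (r = 0.96) and Gfra1 (r = 0.95), Igf2r with the class I gene H2-D1 (r = 0.97) and Ralb (r = 0.94), Igfbp3 with Plcb1 (r = 0.92) and Tm2d1 (r = 0.9), and Igfbp7 with Sept11 (r = 0.9) and Hc (r = 0.89).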

How the data were processed

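The authors deposited raw counts, whole numbers of reads for each gene in 10 samples. Per the labels' protocols, the QuantSeq 3' FWD kit of Lexogen, which keeps strand, was used with 50 ng of RNA. Per the submitters' processing notes, BWA and featureCounts were used on mm10; versions, annotation release and strand setting: not given in the sources used here. Symbols were matched on identifiers without versions (38872 matched, 184 did not). Positions are those of GENCODE release M21.

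The analysis used edgeR 4.0.16 (R 4.3.3) with filterByExpr and TMM scaling; all 10 libraries entered 1 quasi-likelihood model whose terms were the 4 groups. Benjamini-Hochberg adjustment ran over all 15811 genes tested, and an adjusted p under 0.05 was called. SE is the log2 fold change over the square root of F. Fold changes are for the first group named over the second; the interaction is the KO minus the WT tumour-to-liver difference. DESeq2 1.42.0, RLE scaling, no filter, the compared groups alone, a replicate block and leaving out each library were alternatives. The model was tested on simulated counts. Replicates differed far beyond counting noise (chi-square per degree of freedom 39.8 to 94.9), so none was a duplicate. The series design calls them biological.

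All members are named. From each pathway list up to 4 called genes per comparison with the smallest p are named, or the 2 smallest p as values; some results the rule selects are not reported here. Members and lists were chosen with earlier results of these data known.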

Additional observations from a re-analysis of the deposited data

Results flagged for a closer look

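The tumour-to-liver difference was unlike between the genotypes, by the test of the interaction in edgeR, for 1 member and 4 genes of the pathway lists. Of all tested genes 1.59% passed that test. For Igfbp2 the interaction was -1.74 on the log2 scale (SE 0.4, edgeR adjusted p = 0.041): all KO tumours lay below the KO livers and all WT tumours above the WT livers. It was 2.34 for Igf1 (SE 0.38, adjusted p = 0.0038), -3.05 for Trib3 (SE 0.68, adjusted p = 0.033) and 3.95 for G6pc (SE 0.43, adjusted p = 0.00012). Pnpla3 had -7.84 (SE 1.76, adjusted p = 0.036), a fitted value that is no bound, because WT liver had 0 and 1 counts. Leaving out 1 library at a time, Igf1 and G6pc kept their calls each time, while the calls of Igfbp2, Trib3 and Pnpla3 were lost in 8, 6 and 7 of 10 such fits.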

How the results depend on the processing

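With 2 or 3 libraries per group, 1 library decided several calls, and depth limits Igfbp5 (0 to 122 counts) and Igf1r (16 to 276 counts). All genes called in WT tumours against WT liver numbered 2251 in DESeq2, against 1318. In KO tumours against KO liver they numbered 386 without a filter, 383 in DESeq2 and 0 with the compared groups alone, against 12 (3 to 202 leaving out a library, the highest without KO tumour replicate 2). In KO against WT liver they numbered 111, 151 and 0, against 1 (0 to 9 leaving out a library). In KO against WT tumours they numbered 1181 without a filter and 1127 in DESeq2, against 715 (459 to 816 leaving out a library), and in the interaction 635 and 654, against 251.

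Without a filter the model's prior degrees of freedom had no finite value, so every gene took the same spread from the trend; Igfbp1 then passed in all 5 comparisons. Members called without a filter numbered 1 in KO tumours against KO liver, 1 in KO against WT liver, 3 in KO against WT tumours and 3 in the interaction. Of the 21045 genes tested without a filter, 386, 111, 1181 and 635 passed in the same order. In KO against WT tumours the members called numbered 2 with RLE scaling, 2 in DESeq2 and 0 with the tumours alone. All genes called there numbered 714 of 15811 with RLE scaling, 1127 in DESeq2 (7.58%) and 681 with the tumours alone. In the interaction DESeq2 called 2 members, against 4.4% of all tested genes. Leaving out a library gave 0 to 3 members in WT tumours against WT liver, 0 to 1 in KO tumours against KO liver, 0 to 3 in KO against WT tumours and 0 to 1 in the interaction.

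Replicate numbers did not pair the samples: same-numbered libraries correlated at -0.01 to 0.03 in their deviations from group means, and not every tumour correlated best with its own number. The fit with a replicate block called 1075, 11, 1, 681 and 255 genes and 3, 0, 0, 1 and 1 members, in the order of comparisons above. It reversed Igfbp5 in KO tumours against KO liver (1.22) and Igf1r in KO against WT liver (-0.30), neither called.

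Signs also turned on leaving out a library and, apart from the reversals with a replicate block, only then. None of these values was called. In WT tumours against WT liver Igfbp5 ranged from -0.44 to 8 and Igfbp7 from -0.25 to 0.08. In KO tumours against KO liver Igfbp5 ranged from -1.01 to 4.54, Igfbp7 from -0.85 to 0.06 and Igf1r from -1.64 to 2.16. In KO against WT liver Igfbp3 ranged from -0.01 to 0.93, Igfbp4 from -0.09 to 0.35, Igfbp7 from -0.60 to 0.06, Igf1r from -2.89 to 0.90 and Igf2r from -0.19 to 0. In KO against WT tumours Igfbp3 ranged from -0.27 to 0.35 and Igf1r from -0.52 to 0.07. In the interaction Igfbp3 ranged from -0.81 to 0.16, Igfbp5 from -8.04 to 0.40, Igfbp7 from -0.79 to 0.13 and Igf1r from -1.18 to 2.62. The cause was not tested.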
